A study of Rattus norvegicus with 8 samples.

Results

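The genes described here build ribosomes in the nucleolus. They were chosen by symbol, with earlier results of these data known, as 40 ribosome biogenesis and nucleolar genes. Of these, 39 could be measured, among 10047 genes tested. The missing one is Npm1 (nucleophosmin), whose probe sets all also carry the symbol of a pseudogene, Npm1-ps9, so no value is given for it. The 39 genes had 49 probe sets, and the probe set with the highest mean signal stood for each gene. All 39 lay above the filter on dim probe sets.

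Ribosomes are assembled in the nucleolus, where RNA polymerase I copies the ribosomal DNA into a long precursor. Small nucleolar ribonucleoproteins (snoRNPs) modify that precursor, the box C/D class by methylation and the H/ACA class by making pseudouridine. Processing factors then cut and fold it into the 40S and 60S subunits. The output of this pathway is known to follow the growth state of a cell, and in thyroid follicular cells thyrotropin (TSH) is a signal for growth as well as for hormone synthesis.

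The cells were FRTL-5, a rat thyroid follicular line (sub-clone SB5), into which a human TSH receptor had been stably introduced. The receptor was wild type or carried L629F, a change known to make it signal in the absence of hormone. Each receptor was represented by 1 line. The cells received 1 mM sodium iodide or 1 mM sodium chloride as the salt control, which made 4 groups of 2 arrays, and 5 mU/ml bovine TSH was present in every group. The series addressed how iodine acts on cells that model early thyroid autonomy, the state of thyroid tissue that no longer needs TSH to work. The duration of the treatment is not given in the sources used here. Nothing in the labels says that the 2 arrays of a group came from separate cultures, and the spread that the p-values rest on may therefore be technical. The arrays carry rat probes and the introduced receptor is human, so no probe set checks the receptor label.

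The promoters of the group are shown first, because the transcripts are described below as a set. RefSeq promoter windows (assembly GRCr8) of 300 bases, with 250 before and 50 after the start of transcription, were found for 36 of the 40 genes. Gnl2, Bop1, Wdr43 and Rrs1 had none. The E-box CACGTG, the letters that MYC and other bHLH factors are known to bind, was present in 12 of 36 windows (33.3%), against 7.08% of all genes with a window and 10.3% of the genes tested on the arrays. The letters CCGGAAGT, of the kind that ETS factors bind, were present on either strand in 13 of 36 (36.1%), against 4.2% of all genes with a window and 9.17% of the genes tested. The letters TCTCGCG, on either strand, were in 5 of 36 windows (13.9%, against 2.66% and 5.81%). The TATA letters TATAAA, on either strand, were in 1 of 36 (2.78%, against 15.3% and 7.09%). In the members' windows no match of one motif shared a base with a match of another, and a match describes the letters and shows no binding.

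Stretches from 5 of the members that are followed below (Gnl3, Utp4, Mybbp1a, Nhp2 and Ddx21) and from Dkc1 show how these letters lie. Each is written 5′ to 3′ along the gene's own strand, with CACGTG or CCGGAAGT, or its reverse complement ACTTCCGG, in capitals. Gnl3 is at chr16:6219793-6219822 on the minus strand and Utp4 at chr19:51702201-51702230 on the plus strand. Mybbp1a is at chr10:57555238-57555357 (plus), Nhp2 at chr10:36377900-36378019 (plus), Ddx21 at chr20:31097239-31097358 (minus) and Dkc1 at chrX:157751461-157751600 (plus), all in GRCr8.
Gnl3: cgcagttccagttcgCACGTGgcgcccgag
Utp4: gagtgcgcacgcgcgCACGTGggaccgggg
Mybbp1a: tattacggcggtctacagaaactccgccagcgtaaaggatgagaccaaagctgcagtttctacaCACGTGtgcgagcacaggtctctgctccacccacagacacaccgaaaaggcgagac
Nhp2: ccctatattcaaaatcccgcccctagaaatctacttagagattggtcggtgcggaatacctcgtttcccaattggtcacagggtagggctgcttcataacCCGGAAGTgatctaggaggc
Ddx21: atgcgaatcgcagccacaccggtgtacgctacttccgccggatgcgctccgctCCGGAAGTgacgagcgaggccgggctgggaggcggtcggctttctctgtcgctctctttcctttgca
Dkc1: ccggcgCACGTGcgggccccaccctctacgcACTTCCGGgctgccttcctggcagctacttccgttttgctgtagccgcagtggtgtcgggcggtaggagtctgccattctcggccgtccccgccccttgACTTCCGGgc

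In Gnl3 and in Utp4 the first base of the E-box lay 25 bases before the start, and in Mybbp1a E-boxes began 156 bases and 1 base before it. Utp4 also held the CCGGAAGT letters at 84 and at 60 bases before the start, outside the stretch shown. The CCGGAAGT letters of Nhp2 began 20 bases and those of Ddx21 67 bases before the start. Dkc1 had an E-box 184 bases before the start and the ETS letters at 159 and at 60 bases. The window of Nop56, whose transcript is described first below, held none of the 4 motifs. The start used by the window was the outermost one annotated for 25 of the 36 genes. For Gnl3 and Utp4, RefSeq also annotates starts further upstream, so their stretches can lie inside a longer transcript. The same holds for Nop56, whose outermost annotated start lies 3992 bases upstream of the one used, and the bases before that start were not read.

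Iodide was compared with chloride within each line, and the mean of the 2 differences (4 iodide against 4 chloride arrays, with the receptor held equal) was the main comparison. With iodide, the transcripts of 6 members were higher at an adjusted p under 0.05: Nop56, Gnl3, Mybbp1a, Nhp2, Ddx21 and Utp4. No member was lower. The rises were of 1.34 to 1.51-fold on the log2(signal + 35.3) scale, on which all differences here are given. Of all 10047 genes, 1.6% passed this test in either direction and 0.518% as higher, against 15.4% of the members. P-values for differences between groups come from limma and are two-sided, and were adjusted by Benjamini-Hochberg across the 10047 genes. The number of arrays limits the precision, with a median standard error of 0.14 log2 for this mean and 0.20 log2 within a line. All signals below are the deposited MAS5 signals on a linear scale, in the order of replicates 1 and 2, and signals of different genes are not compared with each other.

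**Figure D1:**
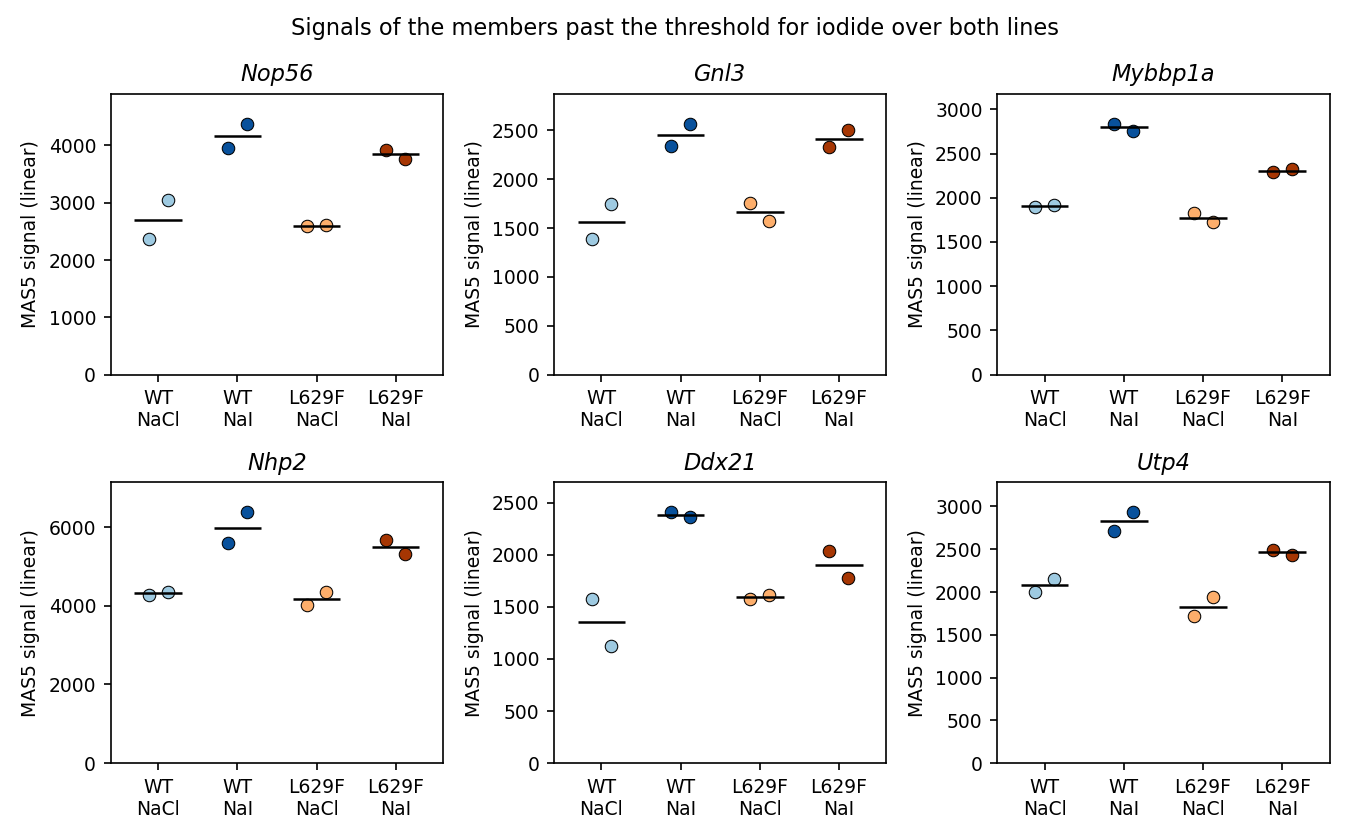
MAS5 signal (linear axis from 0) of the 6 members that rose with iodide, on each of the 8 arrays. Points are single arrays, short lines are the means of the 2 arrays of a group, and for each of these genes both iodide arrays of a line lay above both chloride arrays of that line.

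The 3 members that encode box C/D proteins had higher signals on every iodide array than on any chloride array, and 1 of them passed. Nop56, a scaffold protein of the box C/D snoRNP, had signals of 2362 and 3052 with chloride and 3959 and 4382 with iodide in wild type receptor cells. Its L629F arrays gave 2600 and 2606 with chloride and 3929 and 3764 with iodide. All 4 iodide arrays lay above all 4 chloride arrays. The mean difference of Nop56 was 0.59 ± 0.10 log2 (SE, 1.51-fold, adjusted p = 0.0121). Nop58, its paralogue in the same particle, had 5617 and 5461 with chloride and 7835 and 6536 with iodide in wild type cells, and 5549 and 5660 against 7670 and 7136 in L629F cells. Fibrillarin (Fbl), the methyltransferase of the particle, had 4637 and 4500.5 against 6220 and 5878 in wild type cells and 4866 and 4515 against 5900 and 5809 in L629F cells. The iodide and chloride arrays did not overlap for either gene, but Nop58 (0.38 ± 0.09, adjusted p = 0.0513) and Fbl (0.36 ± 0.09, adjusted p = 0.0517) narrowly missed the threshold.

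Among the 4 H/ACA proteins, only Nhp2, a core protein that helps bind the guide RNA, passed. Its signals were 4279 and 4356 with chloride and 5589 and 6379 with iodide in wild type cells, and 4018 and 4348.5 against 5660 and 5313 in L629F cells. Every iodide array was thus above every chloride array, with a mean difference of 0.43 ± 0.09 (1.34-fold, adjusted p = 0.0313). Gar1, another protein of that core, had 1437 and 1145 against 2047 and 1320 in wild type cells and 1140 and 1126 against 1731 and 1634 in L629F cells. Its groups overlapped in wild type cells only, and its mean difference was 0.45 ± 0.14 (adjusted p = 0.126), or 0.30 without wild type iodide replicate 1. Dyskerin (Dkc1), the pseudouridine synthase, differed by 0.15 (adjusted p = 0.562) and Nop10 by 0.06 (adjusted p = 0.862).

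Mybbp1a, a nucleolar protein that takes part in the processing of ribosomal RNA, had arrays that lay close together within each group. Its signals were 1894 and 1916 with chloride against 2838 and 2759 with iodide in wild type cells. The L629F arrays read 1828 and 1722 against 2287 and 2325. Iodide arrays were higher in both lines, and the mean difference was 0.46 ± 0.09 (1.38-fold, adjusted p = 0.028). Nucleolin (Ncl), an abundant RNA-binding protein of the nucleolus, had 8336 and 9829 against 9576 and 10838 in wild type cells and 7311 and 8050 against 8573 and 10560 in L629F cells, and its difference of 0.24 ± 0.10 did not pass (adjusted p = 0.26). Nolc1, a chaperone that accompanies snoRNPs, had 1310 and 1439 against 1188 and 1124 in wild type cells and 864 and 1025 against 854 and 1014.5 in L629F cells. Nolc1 was therefore lower with iodide on both wild type arrays and overlapping in L629F cells, with a mean of -0.13 ± 0.12 (adjusted p = 0.662).

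The 2 large subunits of RNA polymerase I did not pass. Polr1b had 489 and 501 with chloride against 772 and 765 with iodide in wild type cells, and 463 and 361 against 499 and 628.9 in L629F cells. The groups were apart within each line, and the mean difference was 0.51 ± 0.14 (adjusted p = 0.0839). Polr1a, the catalytic subunit, had 619 and 506 against 740 and 484 in wild type cells and 316 and 374 against 442 and 516 in L629F cells, so that its wild type groups overlapped. Its mean difference was 0.27 ± 0.16 (adjusted p = 0.471), and it was 0.12 without wild type iodide replicate 1 and 0.41 without wild type iodide replicate 2.

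Of the 11 factors of the small subunit processome and of 40S maturation, 10 had a positive difference and 1 passed. That one was Utp4, a subunit of the early complex that forms on the growing precursor. Utp4 had 2006 and 2152 with chloride against 2718 and 2934 with iodide in wild type cells, and 1719 and 1942 against 2493 and 2434 in L629F cells. These arrays did not overlap, and the mean difference was 0.43 ± 0.10 (1.35-fold, adjusted p = 0.0462). Tsr1, needed late in 40S maturation, had 2493.5 and 2510 against 3103 and 3411 in wild type cells and 2079 and 2426 against 2823 and 3149 in L629F cells (0.39 ± 0.10, adjusted p = 0.0722). Rrp9 (0.38) and Wdr43 (0.50 ± 0.15, adjusted p = 0.125) were also positive without passing. Imp3, a protein that binds the U3 snoRNA, was the exception at -0.21 ± 0.14 (adjusted p = 0.529).

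The 60S assembly factors were the largest role group, with 15 members, of which 13 had a positive difference and 1 passed. Gnl3 (nucleostemin), a nucleolar GTPase, had 1387 and 1744 with chloride against 2344 and 2569 with iodide in wild type cells. The L629F arrays gave 1756 and 1571 against 2327 and 2502. All iodide arrays lay above all chloride arrays, and the mean difference was 0.59 ± 0.11 (1.503-fold, adjusted p = 0.0161). Ftsj3, a methyltransferase of the precursor, had 804 and 813 against 1105 and 1138 in wild type cells and 900.3 and 909 against 1271 and 1233 in L629F cells. The 2 arrays of each of its groups were close together, and its mean difference of 0.45 ± 0.11 narrowly missed the threshold (adjusted p = 0.0514). The helicase Ddx56 had 567 and 603 against 839 and 916 in wild type cells and 465 and 433 against 661 and 601.5 in L629F cells (0.51 ± 0.12, adjusted p = 0.0549). Bop1 and Rrp1 were the members with negative values (-0.08 and -0.05). Pes1 and Wdr12, which form a complex with Bop1, had 0.21 and 0.11, and none of the 3 passed.

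A further 9 members had an adjusted p between 0.05 and 0.1, and no share of all genes is given here for that band. At an unadjusted p under 0.05, 24 members (61.5%) were higher, against 7.9% of all genes. Over all 39 tested members, 35 had a positive mean difference with iodide (89.7%), and the median was 0.32 log2. Over all genes tested 52.2% were positive and the median was 0.01. Members lay in the brighter part of the array, with 13 of them in the brightest of 5 equal classes of genes, where the median over all genes was 0.07 and over the members 0.38. For 15 members (38.5%) all 4 iodide arrays were above all 4 chloride arrays, against 4.56% of all genes. The members were chosen with earlier results of these data known, so these shares describe the list and do not test it. Leaving out each of the 8 arrays in turn kept 34 to 36 members positive.

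**Figure D2:**
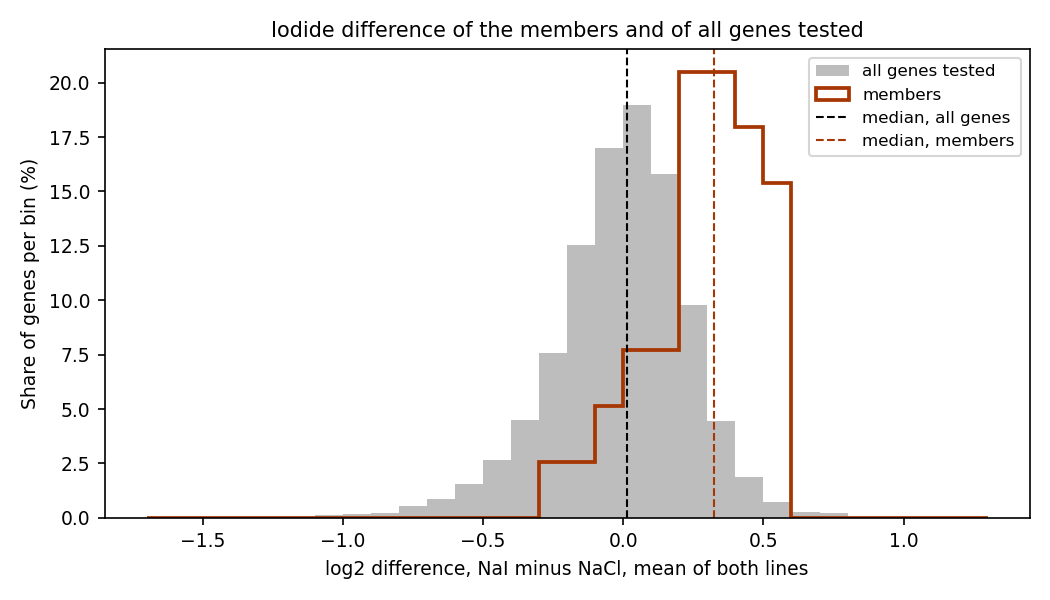
Distribution of the iodide difference (log2, mean of both lines, horizontal axis) as the share of genes per bin (vertical axis, percent), for the 10047 genes tested (grey) and the 39 members (red outline). Dashed lines are the medians, 0.01 for all genes and 0.32 for the members.

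The calls of single members were less stable than their direction. With 1 array left out of the fit, the number past the threshold was 1 without wild type chloride replicate 1, 2 without wild type chloride replicate 2, 5 without wild type iodide replicate 1 and 3 without wild type iodide replicate 2. It was 2 without L629F chloride replicate 1, 0 without L629F chloride replicate 2, 0 without L629F iodide replicate 1 and 2 without L629F iodide replicate 2. Without an intensity trend in the spread no member passed, against 18 of all genes.

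Within a single line no member passed in limma, in wild type or in L629F cells. In wild type receptor cells 18 members were higher at an unadjusted p under 0.05 (46.2%, against 6.25% of all genes), and 0.458% of all genes passed after adjustment. In L629F cells 19 members were higher at that unadjusted p (48.7%, against 3.73% of all genes), and 0.0896% of all genes passed. Both iodide arrays lay above both chloride arrays for 25 members in wild type cells (64.1%, against 23.7% of all genes) and for 29 in L629F cells (74.4%, against 20.2%), and 21 members did so in both (53.8%, against 8.17%). Differences were positive in both lines for 31 members, negative in both for Nolc1 and Bop1, and of opposite sign for Dkc1, Imp3, Bysl, Pes1, Wdr12 and Rrp1.

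**Figure D3:**
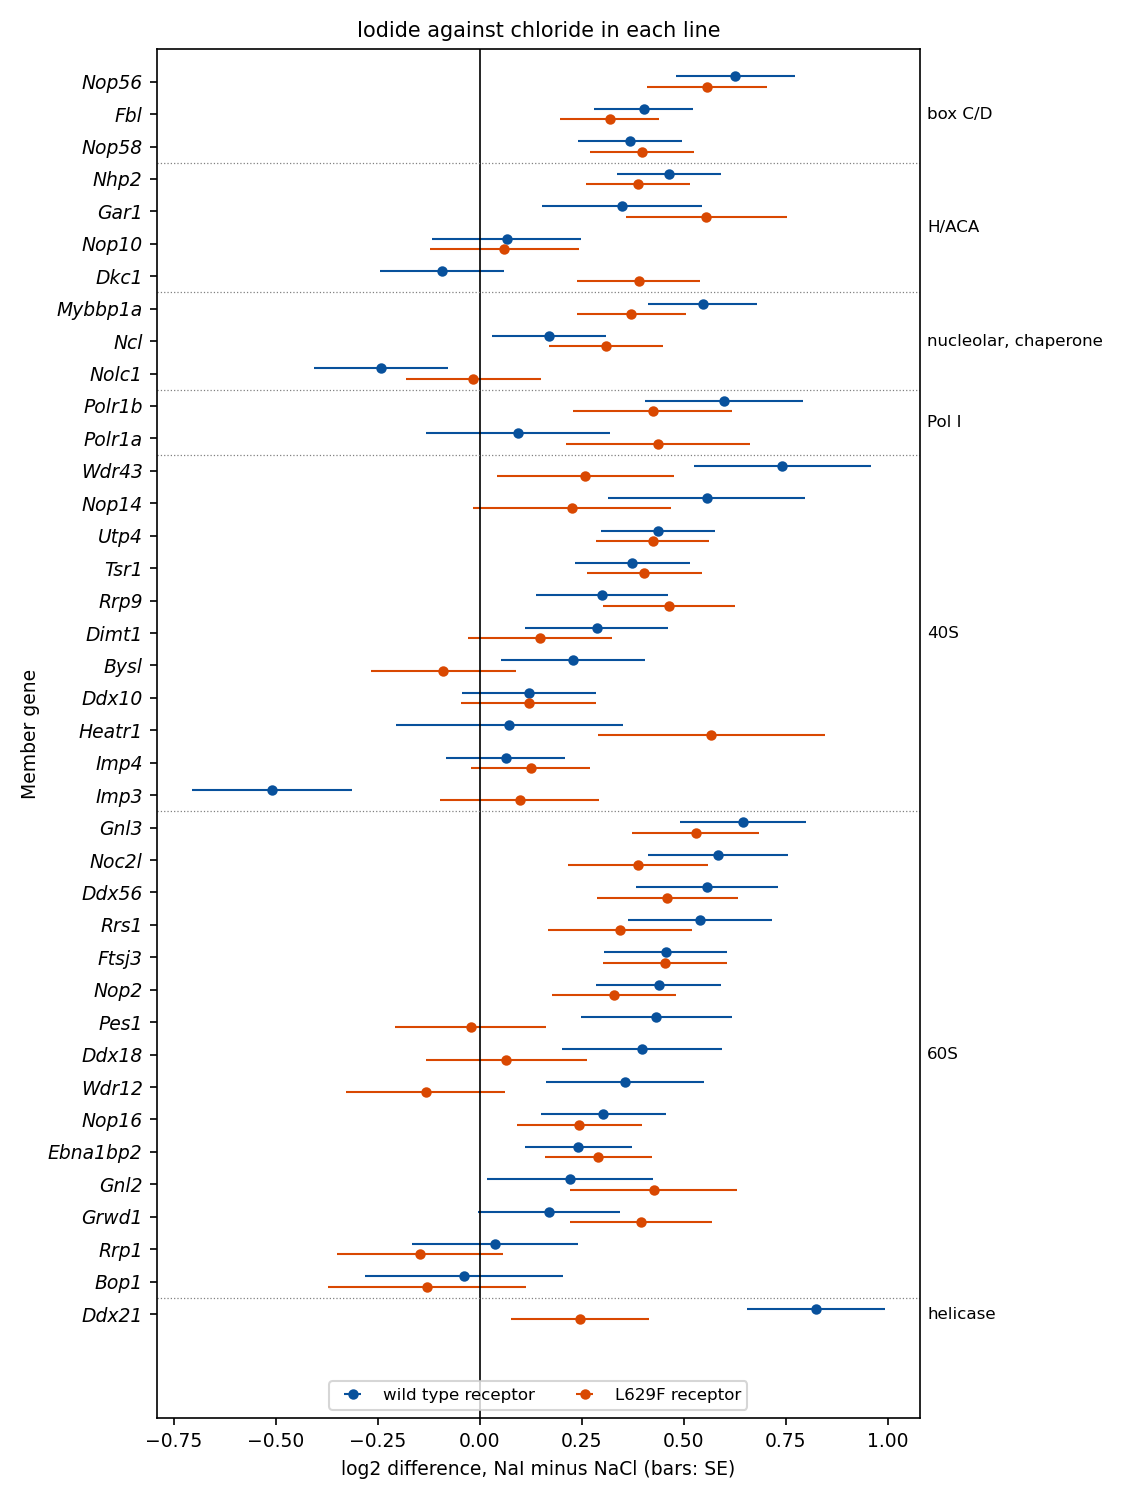
Iodide minus chloride (log2 difference, horizontal axis, with bars of 1 SE) for each of the 39 members in wild type (blue) and L629F (orange) receptor cells, ordered by role. Both lines are right of 0 for 31 members, and the widest gaps between the lines are those of Imp3, Ddx21 and a few others such as Heatr1 and Wdr12.

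In wild type cells the smallest p values were those of Ddx21 (0.82 ± 0.17, adjusted p = 0.0564), Nop56 (0.63 ± 0.15, adjusted p = 0.0978), Gnl3 (0.65 ± 0.15, adjusted p = 0.109), Mybbp1a (0.55 ± 0.13, adjusted p = 0.112) and Nhp2 (0.46 ± 0.13, adjusted p = 0.154). In L629F cells they were those of Nop56 (0.56 ± 0.15, adjusted p = 0.259), Gnl3 (0.53 ± 0.15, adjusted p = 0.33), Nop58 (0.40 ± 0.13, adjusted p = 0.378), Nhp2 (0.39 ± 0.13, adjusted p = 0.396) and Utp4 (0.42 ± 0.14, adjusted p = 0.397). Nop56, Gnl3 and Nhp2 were thus among the first 5 in each line.

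The difference between the lines was tested directly as an interaction, the iodide difference in L629F cells minus that in wild type cells. No member and 0% of all genes passed after adjustment in limma, while 3 members (7.69%) and 4.16% of all genes had an unadjusted p under 0.05. For Nop56 the interaction was -0.07 log2, with a 95% confidence interval from -0.52 to 0.38, which includes differences between the lines nearly as large as the rise itself. The 3 members were Ddx21 (-0.58, interval -1.09 to -0.06), Imp3 (0.61, interval 0.01 to 1.203) and Dkc1 (0.48, interval 0.02 to 0.94), each with an adjusted p of 0.993. The value of Ddx21 was -0.34 without wild type chloride replicate 2, and that of Imp3 was 0.40 without L629F iodide replicate 2. Imp3 had 1407.5 and 1193 with chloride against 1018 and 795 with iodide in wild type cells, and 867 and 1059 against 886 and 1192 in L629F cells. It was lower with iodide in wild type cells only, where its groups did not overlap. Dkc1 had 2968 and 3016 against 2991 and 2632 in wild type cells and 2129 and 1793.5 against 2335 and 2830 in L629F cells, so that it was higher with iodide without overlap only in L629F cells.

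Ddx21, a nucleolar RNA helicase with roles in transcription by RNA polymerase I and in processing, had 2 probe sets that went in opposite directions. The brighter one, 1375901_at, had 1577 and 1125 with chloride against 2409 and 2363 with iodide in wild type cells, and 1579 and 1617.5 against 2037 and 1773 in L629F cells. On it the mean iodide difference was 0.53 ± 0.12 (1.45-fold, adjusted p = 0.042), with the iodide arrays above the chloride arrays in each line. The dimmer one, 1396187_at, had a mean signal of 163 and read 174 and 147 against 112 and 56.6 in wild type cells and 222 and 186 against 255 and 151 in L629F cells. On that probe set the mean difference was -0.40, the iodide arrays were lower in wild type cells, and the groups overlapped in L629F cells. With the mean of both probe sets in place of the brighter one, Ddx21 had 0.07 with an adjusted p of 0.873 and was no longer called. Which transcript each probe set reads was not tested.

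**Figure D4:**
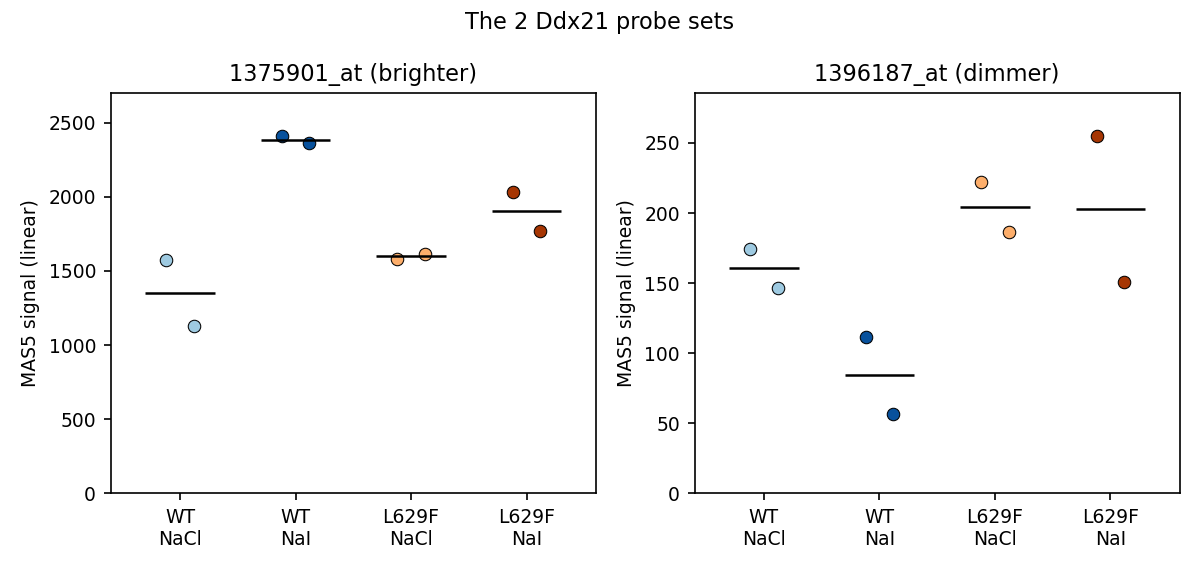
MAS5 signal (linear axes from 0, different scales) of the 2 Ddx21 probe sets on each array, with group means as lines. With iodide the brighter probe set is higher in wild type cells (2409 and 2363 against 1577 and 1125) while the dimmer one is lower (112 and 56.6 against 174 and 147).

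Of the 7 members with several probe sets above the filter, 4 had the same sign of the iodide mean on all of them and 3 (Ddx21, Imp4 and Nolc1) did not. For the mean receptor difference 4 of the 7 had the same sign, and 3 (Ddx18, Ddx21 and Wdr43) did not. The values that follow are for iodide. Nop56 was positive on both of its probe sets, 0.59 on the brighter and 0.23 on the dimmer, but the dimmer one was at -0.09 in wild type cells. With the mean of its probe sets Nop56 had 0.41 and was no longer called (adjusted p = 0.148), and its value in wild type cells was 0.27. Wdr43 was likewise positive on both (0.50 and 0.37), and so were Ddx18 (0.23 and 0.26) and Dimt1 (0.22 and 0.22). Nolc1 had -0.13 on the brightest of its probe sets above the filter and 0.23 and 0.14 on the others, so its direction changed to 0.08 (adjusted p = 0.812) with their mean.

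The receptor comparison, L629F minus wild type, called no member in limma. The members' values leaned lower in L629F cells, with 29 of 39 negative for the mean over both salts and a median of -0.12, beside -0.003 for all genes. Part of that gap goes with brightness. The dimmest of the 5 classes of genes held no member and had a median of 0.19 over all genes. Classes 3, 4 and 5 (the brightest) held 11, 12 and 13 members. There the median was -0.03, -0.05 and -0.05 over all genes and -0.13, -0.09 and -0.08 over the members. Of all genes 0.488% passed with chloride, 0.488% with iodide and 3.17% for the mean. At an unadjusted p under 0.05, 5 members were lower with chloride (12.8%, against 6.44% of all genes), 4 with iodide (10.3%, against 5.6%) and 7 for the mean (17.9%, against 9.47%). No member was higher at that level in any of the 3.

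**Figure D5:**
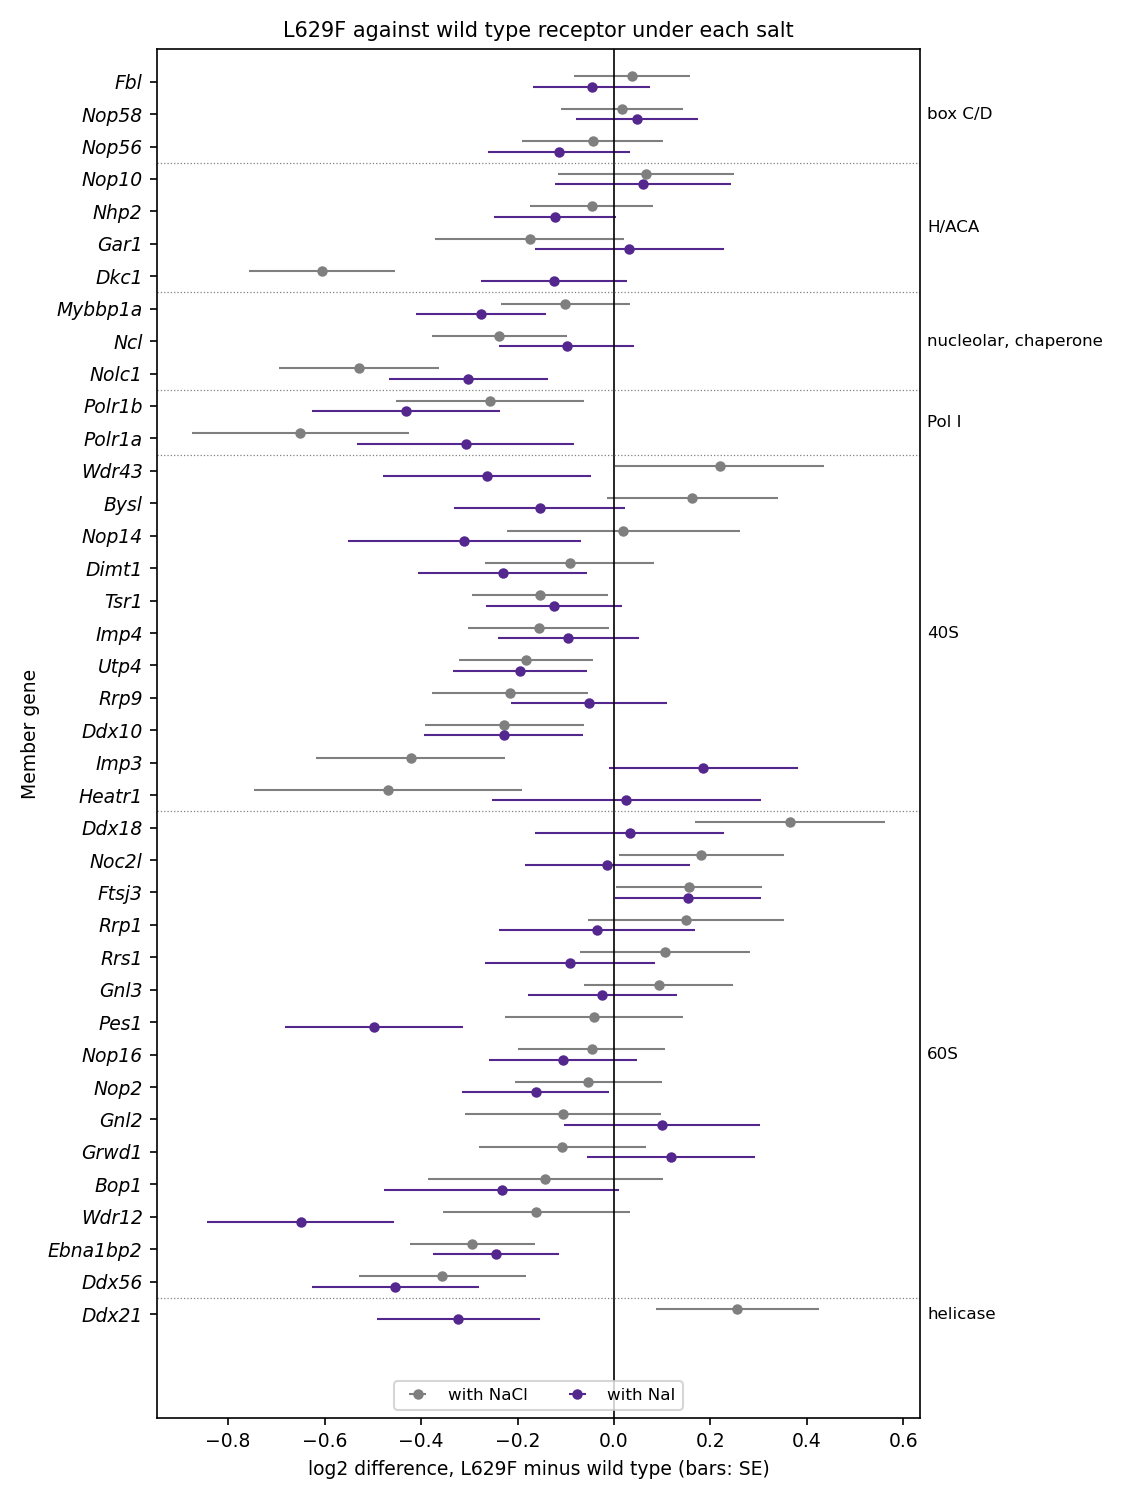
L629F minus wild type (log2 difference, horizontal axis, with bars of 1 SE) for each of the 39 members with NaCl (grey) and NaI (purple), ordered by role. Values are negative under both salts for 21 members and positive under both for 4, and Ddx21 is right of 0 with NaCl and left of 0 with NaI.

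This lean depended on how the arrays were brought to a common level. Median signals were 118 to 127 on wild type arrays and 138 to 147.5 on L629F arrays, while the trimmed mean was 500.2 on all. With each array centred on its median over all probe sets, the median receptor mean over all genes moved from -0.003 to -0.17. That of the members moved from -0.12 to -0.29, and 12 members passed as lower and none as higher, beside 0 in the scale as deposited. Genes in general thus shifted down with the members under this centring, and the 12 cannot be read as particular to the members.

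The members of smallest p in the receptor mean were Nolc1, Dkc1, Ddx56, Polr1a and Wdr12, and all 5 had lower values in L629F cells. Using the signals given above, those of its brightest probe set, Nolc1 was lower on all 4 L629F arrays than on all 4 wild type arrays. Its mean difference was -0.42 ± 0.12 (adjusted p = 0.0716), and -0.53 ± 0.17 with chloride (adjusted p = 0.194). On its other probe sets above the filter the mean difference was -0.05 and -0.49, and the arrays of the lines overlapped on both. Only Nolc1 and Ddx10 had L629F arrays that were all lower (5.13% of members, against 4.66% of all genes). Dkc1 differed by -0.61 ± 0.15 with chloride (adjusted p = 0.108), where its groups were apart, by -0.12 ± 0.15 with iodide (adjusted p = 0.782), where they overlapped, and by -0.37 ± 0.11 for the mean (adjusted p = 0.0837). Both polymerase subunits had negative values, Polr1a of -0.65 ± 0.22 with chloride (adjusted p = 0.233) and -0.48 ± 0.16 for the mean (adjusted p = 0.121), and Polr1b of -0.43 ± 0.19 with iodide (adjusted p = 0.399), or -0.27 without L629F iodide replicate 1.

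In the 60S group, Wdr12 had 819 and 1124 with chloride and 1380.5 and 1109.5 with iodide in wild type cells, against 829 and 880 and then 865 and 697 in L629F cells. Its receptor difference was -0.65 ± 0.19 with iodide (adjusted p = 0.197), where the groups were apart, and -0.41 ± 0.14 for the mean (adjusted p = 0.126). Pes1, its partner, had 1111 and 1220 with chloride and 1643 and 1527 with iodide in wild type cells, against 1264 and 1009 and then 1315 and 939 in L629F cells. Pes1 differed by -0.50 ± 0.18 with iodide (adjusted p = 0.3), or by -0.26 without L629F iodide replicate 2, and with chloride its groups overlapped. Ddx56 had -0.45 ± 0.17 with iodide (adjusted p = 0.319) and -0.40 ± 0.12 for the mean (adjusted p = 0.0929).

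Ebna1bp2, another 60S factor, had 3845 and 4100 with chloride and 4426 and 4996 with iodide in wild type cells, and 3312 and 3156 and then 3804 and 4130 in L629F cells. With chloride its receptor difference was -0.29 ± 0.13 (adjusted p = 0.348). Imp3 differed by -0.42 ± 0.20 with chloride (adjusted p = 0.366), and Mybbp1a by -0.28 ± 0.13 with iodide (adjusted p = 0.424). The receptor and iodide comparisons share arrays, so a gene that is low on the wild type chloride arrays enters both.

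Other genes of the pathway were read from a list of 119 genes, of which 111 were tested. Their median difference with iodide was 0.18, with 95 positive (85.6%), 29 higher and 1 lower at an unadjusted p under 0.05 (over all 10047 genes 794 and 735), and none passed after adjustment. Ddx27, a 60S helicase, came closest, at 0.51 ± 0.12 (adjusted p = 0.0533). The 43 tested small subunit factors had a median of 0.20, the 44 of the 60S list 0.20, the 13 of the RNA polymerase I machinery 0.14 and the 11 of the nuclear exosome, which trims the precursor, 0.14. By line, the median iodide difference of the 111 was 0.24 in wild type cells and 0.11 in L629F cells. At an unadjusted p under 0.05, 23 were higher and 2 lower in wild type cells, where 6.25% of all genes were higher. In L629F cells 5 were higher and 0 lower, where 3.73% of all genes were higher. In the receptor mean 1 of the 111 passed. Utp11, a processome factor, had 415 and 344 with chloride and 272 and 443 with iodide in wild type cells, against 643.5 and 797 and then 696 and 717 in L629F cells, which was 0.91 ± 0.16 higher (adjusted p = 0.00907) and opposite to the lean of the members.

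Myc, the transcription factor known to drive many genes of this pathway, had 795 and 740 with chloride and 872 and 1105 with iodide in wild type cells. Its L629F arrays read 532 and 509 with chloride and 685 and 727 with iodide. With iodide it was higher within each line without overlap, by 0.38 ± 0.12, and did not pass (adjusted p = 0.155). Between receptors it fell by 0.49 ± 0.12 in L629F cells (adjusted p = 0.0482), the only gene called among 14 of the MYC network and of mTORC1. Their median iodide difference was 0.0002.

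Genes of cell division were read from a list of 14 beside the members. Of 13 tested, 5 rose with iodide and 13 were positive, with a median of 0.28. Those that rose were the DNA ligase Lig1 (0.76 ± 0.10, adjusted p = 0.00128), the ribonucleotide reductase subunit Rrm1 (0.49 ± 0.09, adjusted p = 0.0149) and the replicative helicase subunits Mcm7 (0.42), Mcm6 (0.53) and Mcm5 (0.54). In bulk RNA a change in the share of cells in a given state and a change of RNA per cell cannot be told apart. In the receptor mean 12 of the 13 were negative, with a median of -0.21, and Mcm2 passed as lower (-0.52 ± 0.11, adjusted p = 0.0222). The part of cell division in the members' values was not tested.

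Within groups, the 2 arrays had a correlation of 0.971 to 0.981 over genes. The ratio of the 3′ to the 5′ signal of GAPDH is a measure that rises as RNA degrades. It was 1.22 to 2.17 on the chloride arrays and 1.40 to 3.13 on the iodide arrays. The same ratio of beta-actin ran from 2.23 on wild type chloride replicate 1 to 9.15 on wild type iodide replicate 2. With the log2 of the GAPDH ratio as a covariate, 9 members passed as higher with iodide. Of the 6 called without it, 4 were among these 9, and Nhp2 (0.35, adjusted p = 0.0663) and Utp4 (0.36, adjusted p = 0.0897) were not. No count over all genes is given here for the iodide mean with the covariate. For iodide in wild type cells the covariate moved the count past the threshold over all genes from 46 to 195. In that comparison the members went from 0 to 2. The move from 6 to 9 members therefore cannot be read as particular to them. The part of RNA quality in the members' values was not tested further. Of 9 thyroid follicular markers, 8 lay above the filter, at signals of 345 to 16600. Leucocyte markers above it (3 of 7) had 16.3 to 151, fibroblast markers (2 of 5) 27.8 to 226 and Vwf, the one endothelial marker of 4, 56.9 to 281. No C cell marker of 4 was above it.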

How the data were processed

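Total RNA from 8 samples was hybridised to 1-colour rat Affymetrix arrays. The deposited values are intensities on a linear scale, made by the authors with MAS5, per the submitters' processing notes, and its version is not given in the sources used here. The trimmed mean (2% left out at each end) was 500.2 on every array. Symbols came from the platform annotation, updated through the GRCr8 gene list of RefSeq. Of 31099 probe sets, 20832 had 1 symbol, 436 several and 9831 none. Left out were 57 control probe sets (6 of them with 1 symbol) and the dimmest 40% by mean log2 value (mean signal under 69.9). Each gene was read from its brightest probe set.

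Values were log2(signal + 35.3), with the 25th percentile of the signals as pseudocount, so changes of dim genes are understated. A limma 3.58.1 model (R 4.3.3, data.table in version 1.17.8, eBayes with an intensity trend) with 1 coefficient per group gave 7 comparisons with a shared spread (4 residual degrees of freedom), called at an adjusted p under 0.05. The fit was tested on simulated data. Figures used matplotlib 3.10.9 in Python 3.11.15.

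The members and gene lists were chosen with earlier results of these data known. Arrays are given for members past the threshold, for the 5 of smallest p in each iodide and receptor comparison and for the 2 of smallest p in each role for the iodide mean. Other pathway genes are named where past the threshold, with Myc, and Ddx27 was named after its value had been seen. The replicate numbers were not taken to pair the arrays, since their deviations did not all correlate above 0.1. All of these correlations were positive (0.043 to 0.226), and counts with a replicate term are given below. Alternatives changed the pseudocount, filter, scaling, probe set rule, variance trend, arrays in the fit, RNA quality term, replicate term and threshold. Each array was also omitted once.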

Additional observations from a re-analysis of the deposited data

Results flagged for a closer look

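The receptor difference of Ddx21 ran in opposite directions under the 2 salts on the brighter probe set. It was 0.26 log2 higher in L629F cells with chloride and 0.32 lower with iodide (-0.323), and the arrays did not overlap in either case. The change between them was -0.579, and its test, the interaction, did not pass (adjusted p = 0.993 in limma over 10047 genes, 8 arrays). On the dimmer probe set the receptor difference was positive under both salts (0.29 with chloride and 1.00 with iodide), and with the mean of both probe sets the change was 0.07. Groups of 2 arrays are too small for a check of single outlying arrays.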

How the results depend on the processing

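Counts below are members past the threshold. The settings also moved the calls over all genes, as given below for iodide in wild type cells. For the iodide mean, 6 in the fit described, the count was 3 without a filter, 10 with the lowest 60% left out, 10 centred on the kept and 10 on all probe sets, 0 without an intensity trend and 15 at a threshold of 0.10, and 0 to 5 with 1 array left out. Over all genes 161 passed for the iodide mean in the fit described. For most of the other settings no count over all genes is given here for this comparison. The moves therefore cannot be read as particular to the members. In wild type cells, with 0, the count of members was 1 with the 60% filter, 1 centred on the kept probe sets, 2 with the GAPDH covariate and 2 at 0.10. Over all genes the count in wild type cells was 46 in the fit described, and 54, 36, 195 and 87 in these settings. With receptors it was 1 with chloride and 12 for the mean when centred on all probe sets, and for the mean 1 with the GAPDH covariate and 3 at 0.10. Centring on all probe sets also lowered the median receptor mean over all genes, to -0.17. The cause of these moves was not tested. The correlations of deviations of same-numbered arrays were 0.043 to 0.226, so the numbers were not taken as pairs. With the replicate block the counts were 17 for the iodide mean (all 6 among them), 6 for iodide in wild type cells, 1 for the receptor with chloride and 3 for the receptor mean. Over all genes the block moved the count for iodide in wild type cells from 46 to 232. No count over all genes is given here for the block in the other comparisons. These member counts therefore cannot be read as particular to the members. Nolc1 turned to 0.0805 for iodide and Ddx21 to 0.0651 for the interaction with the mean of probe sets. The members' median iodide mean stayed at 0.31 to 0.37 over 19 settings. Counts for iodide in L629F cells, the interaction and the receptor with iodide were 0 in every setting run. Few arrays limit all of these.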
